A study of Mus musculus with 19 samples.

Results

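The respiratory chain genes are the subunit genes of the 5 complexes of oxidative phosphorylation, taken here from both the nuclear and the mitochondrial genome. They were chosen by symbol from the gene count matrices of cultured B16-F10 cells, a mouse melanoma line: Ndufa, Ndufb, Ndufc, Ndufs and Ndufv genes with Ndufab1 for complex I, Sdha to Sdhd for complex II, Cyc1 and the Uqcr genes for complex III, the Cox4 to Cox8 families for complex IV, the Atp5 genes for complex V, and the mt-Nd, mt-Cytb, mt-Co and mt-Atp genes of mitochondrial DNA. Assembly factors and pseudogene names were left out. This gave 106 of 55359 genes, of which 93 are nuclear and 13 mitochondrial. By complex there were 41 nuclear and 7 mitochondrial genes in complex I, 4 nuclear genes in complex II, 9 nuclear and 1 mitochondrial in complex III, 21 nuclear and 3 mitochondrial in complex IV, and 18 nuclear and 2 mitochondrial in complex V. Ndufa4 and Ndufa4l2 were counted with complex IV, where the Ndufa4 protein is now placed.

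The study asked what loss of METTL5, the methyltransferase that modifies a single adenosine of the small ribosomal subunit's RNA, does to translation in melanoma cells. The groups used here are Mettl5 KO cells and cells with a scrambled control (SCR), each with 2 libraries of input RNA and 2 of ribosome footprints, the RNA fragments that ribosomes protect from RNase. All 8 libraries came from B16-F10 cells in the same medium, and the cells for footprints of both genotypes were treated with cycloheximide. Of the 19 samples, those from blood and tumours of mice were not used here. The labels give neither the editing tool nor whether the KO cells were 1 clone or a mixture. They also do not say that replicates were separate cultures, so p-values measure the spread between these libraries, which may be technical.

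Electrons from food enter the respiratory chain at complex I (from NADH) or complex II (from succinate), pass through coenzyme Q to complex III and through cytochrome c to complex IV, which reduces oxygen. Complexes I, III and IV pump protons across the inner mitochondrial membrane, and complex V, the ATP synthase, uses the returning protons to make ATP. Complex II is made from nuclear genes alone. The other complexes join subunits translated on cytosolic ribosomes and imported into mitochondria with a small hydrophobic set translated on mitochondrial ribosomes, so their supply depends on 2 genomes and 2 translation systems. METTL5 acts on the cytosolic ribosome, and cycloheximide arrests cytosolic but not mitochondrial ribosomes.

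Promoters of nuclear respiratory chain genes are known for binding sites of NRF1, of the ETS factor GABPA and of YY1, the last often close after the start of transcription. In RefSeq's GRCm38.p6 tables, 70 of 92 nuclear symbols matched, with 75 promoters running from 250 bases before to 50 bases after the start. Both strands were searched for TGCGCATGC (NRF1), CCGGAAG (ETS factors such as GABPA) and AAGATGGCG (YY1). NRF1 letters stood in 5 of 75 promoters (6.67%), against 1.52% of all 32851 promoters and 2.77% of the 14442 promoters of genes tested in input RNA. ETS letters stood in 17 (22.7%), against 8.86% of all promoters and 16.3% of those of tested genes. YY1 letters stood in 7 (9.33%), against 1.40% and 2.72%. In 6 promoters (8%) AAGATGGCG read forwards within 50 bases after the start, against 0.636% of all promoters and 1.38% of those of tested genes. These 6 genes, 5 of complex I and Atp5j2 of complex V, are shown first because they share the same letters at nearly the same place, with AAGATGGCG in capitals.
Ndufa9: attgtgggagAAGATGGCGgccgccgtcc
Ndufc1: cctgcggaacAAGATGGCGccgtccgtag
Ndufs4: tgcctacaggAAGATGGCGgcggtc
Ndufs6: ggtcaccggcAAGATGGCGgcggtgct
Ndufs7: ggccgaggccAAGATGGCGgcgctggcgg
Atp5j2: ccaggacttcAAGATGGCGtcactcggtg
The windows lie in GRCm38.p6 at chr6:126849097-126849125, minus strand (Ndufa9), chr3:51408915-51408943, minus strand (Ndufc1), chr13:114388045-114388069, minus strand (Ndufs4), chr13:73328433-73328459, minus strand (Ndufs6), chr10:80249463-80249491, plus strand (Ndufs7) and chr5:145191500-145191528, minus strand (Atp5j2). A match of letters is a description and not a binding site.

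Uqcrc1, Uqcr11, Sdhd and Uqcrh are shown next because later results turn on them. The Uqcrc1 window after the start, at chr9:108936668-108936697, plus strand, holds a palindrome-like run in which NRF1 letters read on both strands, in capitals. The other sequences are the 100 bases before the start, at chr10:80406822-80406921, minus strand (Uqcr11), chr9:50603850-50603949, minus strand (Sdhd) and chr4:116075071-116075170, minus strand (Uqcrh). In them the capitals mark the ETS letters CCGGAAG, or CTTCCGG where they lie on the opposite strand.
Uqcrc1: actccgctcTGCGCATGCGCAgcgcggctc
Uqcr11: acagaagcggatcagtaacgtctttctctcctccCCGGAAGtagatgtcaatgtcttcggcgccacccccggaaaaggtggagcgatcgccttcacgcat
Sdhd: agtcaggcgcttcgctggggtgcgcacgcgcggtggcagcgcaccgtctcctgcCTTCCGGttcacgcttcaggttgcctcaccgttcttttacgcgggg
Uqcrh: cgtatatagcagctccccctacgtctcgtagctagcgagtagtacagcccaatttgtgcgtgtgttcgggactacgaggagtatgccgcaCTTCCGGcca

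Input RNA libraries held 43601773 to 48692578 counts in KO and 38968000 to 43083013 in SCR cells, and footprint libraries 14555963 to 21366608 in KO and 28059683 to 31301806 in SCR cells. Levels are given as CPM, counts scaled to a common library total with TMM factors within each assay, and a fold change is log2 of KO over SCR with its standard error (SE). A gene was said to have risen or fallen when its adjusted p in edgeR's quasi-likelihood test, Benjamini-Hochberg adjusted over all genes tested, was below 0.05. Mettl5 RNA had 6.46 and 6.21 CPM in KO libraries, against 9.23 and 9.41 CPM in SCR libraries (log2 fold change -0.56, SE 0.13, edgeR adjusted p = 0.0284). Mettl5 was thus lower, but not absent, in the libraries taken as KO, whose columns are headed POOL. Melanocyte markers summed to 13811 and 13617 CPM in KO and to 12644 and 12863 CPM in SCR input RNA, against at most 1.44 CPM in KO and 1.68 CPM in SCR for 6 blood cell markers and at most 1.51 CPM in KO and 2.03 CPM in SCR for 6 fibroblast and endothelial markers.

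RNA of many nuclear respiratory chain genes rose in KO cells, while that of no mitochondrial gene did. Of 84 nuclear members tested, 35 rose and none fell, while 9.56% of all 20025 genes rose and 7.21% fell. The median log2 fold change was 0.27 over nuclear members and -0.01 over all genes, and 74 of 84 values were above 0. Both KO libraries lay above both SCR libraries for 66 of the 84, against 31.0% of all genes. The number that rose depended on single libraries: it was 18 without KO library 1, 55 without KO library 2, 3 without SCR library 1 and 14 without SCR library 2, against 1273, 2516, 578 and 811 of all genes in the same fits, and the median ran between 0.17 and 0.33; with no filter on low counts it was 4, against 649 of all genes. With library totals alone as the scale, 25 nuclear members rose and none fell, and over all genes 1449 rose and 2240 fell, compared with 1915 and 1443 under TMM. In bulk RNA, fewer cells making a transcript and less transcript per cell cannot be told apart.

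In complex I, the NADH dehydrogenase, 16 of 39 nuclear members tested rose, against 9.56% of all genes. Ndufb9, an accessory subunit of the membrane arm, had 84.7 and 73.6 CPM in KO libraries, against 55.0 and 56.2 CPM in SCR libraries (log2 fold change 0.51, SE 0.08, edgeR adjusted p = 0.00778). Ndufs8, a core subunit that carries iron-sulfur clusters, had 50.3 and 47.5 CPM in KO libraries, against 33.5 and 37.2 CPM in SCR libraries (log2 fold change 0.47, SE 0.07, edgeR adjusted p = 0.00936). Ndufb3, another membrane-arm accessory subunit, had 22.3 and 19.9 CPM in KO libraries, against 14.0 and 14.7 CPM in SCR libraries (log2 fold change 0.56, SE 0.10, edgeR adjusted p = 0.0139). In each the lowest KO library was above the highest SCR library, with KO library 1 above KO library 2. Ndufb5 rose as well, with 109 and 95.2 CPM in KO libraries, against 77.7 and 78.9 CPM in SCR libraries (log2 fold change 0.38, SE 0.07, edgeR adjusted p = 0.0153). The 7 nuclear core subunits, which hold the flavin and the iron-sulfur clusters, were all above 0, from 0.06 (Ndufv2) to 0.47 (Ndufs8), and 4 of them rose. Of 30 accessory subunits 12 rose, with a median of 0.30. Ndufa12, an accessory subunit of the peripheral arm, was the nuclear gene of complex I with the most negative value, with 24.3 and 27.0 CPM in KO libraries, against 28.4 and 39.8 CPM in SCR libraries (log2 fold change -0.41, SE 0.15, edgeR adjusted p = 0.107), and SCR library 2 was well above the other 3 libraries.

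Complex II, the succinate dehydrogenase shared with the tricarboxylic acid cycle, had no member past the threshold among its 4 genes. Sdhb, the iron-sulfur subunit, had 310.1 and 261 CPM in KO libraries, against 238 and 232 CPM in SCR libraries (log2 fold change 0.28, SE 0.08, edgeR adjusted p = 0.0534). Sdhc and Sdhd, which anchor the complex in the membrane, gave 0.27 and 0.23. In Sdhb, Sdhc and Sdhd both KO libraries lay above both SCR libraries, as in 31.0% of all genes. Sdha, the flavoprotein that oxidises succinate, gave -0.03, with overlapping groups.

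In complex III, the cytochrome bc1 complex, 6 of 9 nuclear members rose, against 9.56% of all genes, and every value was above 0. Uqcrh, the hinge protein at cytochrome c1, had 73.8 and 60.9 CPM in KO libraries, against 49.3 and 47.9 CPM in SCR libraries (log2 fold change 0.47, SE 0.09, edgeR adjusted p = 0.017). Uqcrc1, a core protein facing the matrix, had 396 and 346 CPM in KO libraries, against 299 and 289 CPM in SCR libraries (log2 fold change 0.34, SE 0.07, edgeR adjusted p = 0.0195). Uqcrfs1, the Rieske iron-sulfur protein, had 217 and 182 CPM in KO libraries, against 157 and 154 CPM in SCR libraries (log2 fold change 0.36, SE 0.08, edgeR adjusted p = 0.0271). The groups were apart in all of these. Uqcr11, a small supernumerary subunit, had 25.1 and 24.8 CPM in KO libraries, against 20.3 and 19.2 CPM in SCR libraries (log2 fold change 0.34, SE 0.08, edgeR adjusted p = 0.0332), with the KO libraries almost equal to each other. Cyc1, Uqcrb and Uqcrc2 had overlapping groups and values of 0.07, 0.01 and 0.03.

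In complex IV, cytochrome c oxidase, 5 of 15 nuclear members tested rose, against 9.56% of all genes. Cox4i1, the broadly expressed isoform of the largest nuclear subunit, had 191 and 153 CPM in KO libraries, against 96.6 and 109.6 CPM in SCR libraries (log2 fold change 0.74, SE 0.11, edgeR adjusted p = 0.00776), the highest fold change of any respiratory chain gene. KO library 1 exceeded KO library 2, and both were above the SCR libraries. Cox5b had 92.4 and 95.5 CPM in KO libraries, against 73.8 and 79.0 CPM in SCR libraries (log2 fold change 0.30, SE 0.06, edgeR adjusted p = 0.0167). Cox6b1, which faces the intermembrane space, had 95.9 and 80.4 CPM in KO libraries, against 69.8 and 68.8 CPM in SCR libraries (log2 fold change 0.35, SE 0.09, edgeR adjusted p = 0.0338). The groups were also apart in Ndufa4, with 143 and 137 CPM in KO libraries, against 111 and 123 CPM in SCR libraries (log2 fold change 0.26, SE 0.06, edgeR adjusted p = 0.0362), and Cox6c was the fifth to rise, with a log2 fold change of 0.29 (edgeR adjusted p = 0.0393). Cox8a was level, with 139.9 and 136 CPM in KO libraries, against 136 and 138 CPM in SCR libraries.

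In complex V, 8 of 17 nuclear members tested rose, against 9.56% of all genes. Atp5mpl, a small proteolipid of the membrane part, had 63.1 and 51.2 CPM in KO libraries, against 37.9 and 37.5 CPM in SCR libraries (log2 fold change 0.60, SE 0.10, edgeR adjusted p = 0.0105). Atp5a1, the alpha subunit of the catalytic F1 head, had 1061 and 981 CPM in KO libraries, against 849 and 834 CPM in SCR libraries (log2 fold change 0.28, SE 0.05, edgeR adjusted p = 0.0147). Atp5e, the epsilon subunit of the central stalk, had 53.4 and 42.0 CPM in KO libraries, against 31.7 and 32.2 CPM in SCR libraries (log2 fold change 0.58, SE 0.11, edgeR adjusted p = 0.0157). The KO libraries lay above the SCR libraries in all of these. Atp5g3, 1 of the 3 genes for the c ring through which protons pass, had 272 and 246 CPM in KO libraries, against 212 and 207 CPM in SCR libraries (log2 fold change 0.31, SE 0.06, edgeR adjusted p = 0.0161), while Atp5g1 and Atp5g2 gave 0.19 and 0.08 and did not pass the threshold. The catalytic beta subunit Atp5b, the nuclear member with the most RNA counts, had 1837 and 1707 CPM in KO libraries, against 1568 and 1553 CPM in SCR libraries (log2 fold change 0.18, SE 0.05, edgeR adjusted p = 0.0471).

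**Figure D1:**
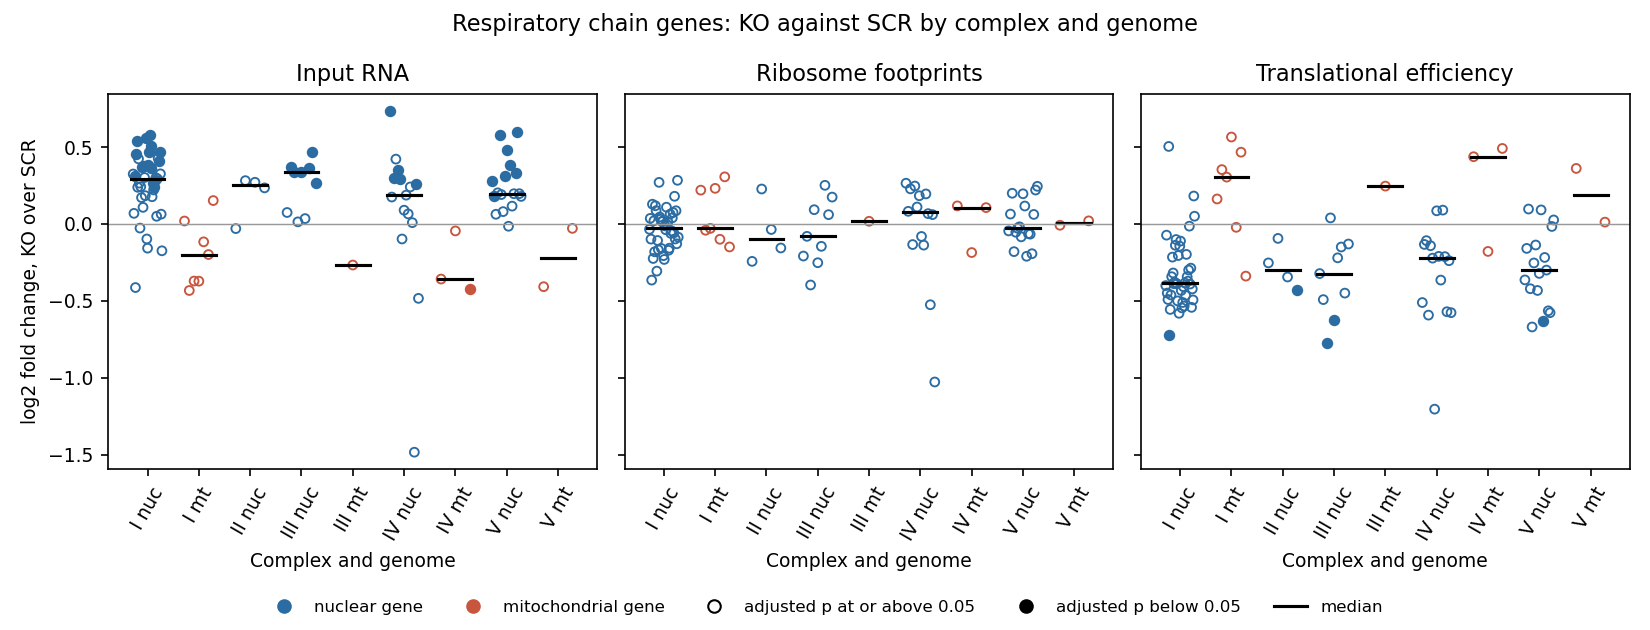
Log2 fold change of KO over SCR (y axis) for each respiratory chain gene tested, by complex and genome (x axis; nuc, nuclear; mt, mitochondrial), in input RNA, ribosome footprints and translational efficiency; filled points have an edgeR adjusted p below 0.05 and bars are medians. Nuclear medians in input RNA lie above 0 in every complex, those of footprints near 0, and those of translational efficiency below 0, while most mitochondrial genes lie below 0 in RNA and above 0 in efficiency; on library totals alone the median of nuclear footprints is 0.09.

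Transcripts of mitochondrial DNA lay mostly below 0. Of 13 mitochondrial genes, 1 fell and none rose in input RNA, against 7.21% and 9.56% of all genes; the median was -0.27 and 11 of 13 values were below 0. mt-Co3, a core subunit of complex IV, had 615 and 796 CPM in KO libraries, against 943 and 948 CPM in SCR libraries (log2 fold change -0.42, SE 0.11, edgeR adjusted p = 0.0377). mt-Co1, the subunit that holds the oxygen-reducing site, had 2229 and 2829 CPM in KO libraries, against 3283 and 3201 CPM in SCR libraries (log2 fold change -0.36, SE 0.10, edgeR adjusted p = 0.0508). Both KO libraries were below both SCR libraries in 8 of the 13, compared with 31.0% of all genes, and in these KO library 1 was the lowest. How many fell depended on which library was left out, among these genes as among all genes. The median was -0.12 without KO library 1 and -0.42 without KO library 2.

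The remaining mitochondrial transcripts did not pass the threshold. In complex I, mt-Nd2 had 317 and 484 CPM in KO libraries, against 512 and 569 CPM in SCR libraries (log2 fold change -0.43, SE 0.17, edgeR adjusted p = 0.132), and mt-Nd3 and mt-Nd4 each gave -0.37; in all of them the groups were apart. mt-Nd5 gave -0.20, mt-Nd4l -0.12 and mt-Nd1 0.02, the last 2 with overlapping groups. mt-Nd6, the only member encoded on the opposite strand of mitochondrial DNA, had 82.9 and 84.7 CPM in KO libraries, against 72.4 and 78.4 CPM in SCR libraries (log2 fold change 0.15, SE 0.06, edgeR adjusted p = 0.132). It was the mitochondrial gene in which both KO libraries were above both SCR libraries, as in 31.0% of all genes. mt-Cytb, the catalytic subunit of complex III, had 1193 and 1468 CPM in KO libraries, against 1551 and 1652 CPM in SCR libraries (log2 fold change -0.27, SE 0.09, edgeR adjusted p = 0.0939). mt-Co2, which takes electrons from cytochrome c, gave -0.05, and mt-Atp6 and mt-Atp8 of the ATP synthase gave -0.41 and -0.03. The reading frames of mt-Atp8 and mt-Atp6 overlap, as do those of mt-Nd4l and mt-Nd4, and the sources used here do not say whether counting used strand, so reads of these pairs and of mt-Nd6 may be shared with their neighbours.

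Summed over each genome, the opposite directions of input RNA showed in every library. Nuclear members took 1.03% and 0.958% of all input RNA counts in KO libraries, against 0.892% and 0.887% in SCR libraries. Mitochondrial members took 0.695% and 0.917% in KO libraries, against 1.01% and 1.05% in SCR libraries. The groups did not overlap in either sum, although in the mitochondrial sum KO library 1 was farther from KO library 2 than KO library 2 was from either SCR library. In footprints, nuclear members took 1.57% and 1.63% of counts in KO and 1.47% and 1.47% in SCR libraries; after TMM scaling the sums were 15107 and 15840 CPM in KO and 15233 and 15373 CPM in SCR libraries, which overlapped. Mitochondrial members took 2.57% and 3.20% of footprint counts in KO and 2.80% and 2.42% in SCR libraries, also overlapping.

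**Figure D2:**
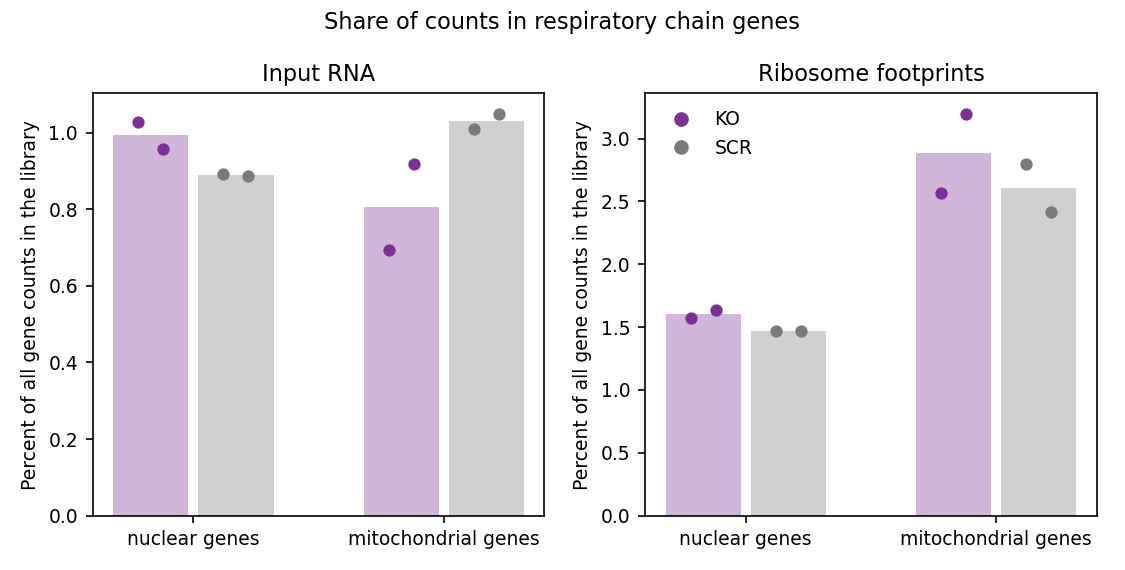
Percent of all gene counts in a library (y axis) that fell on nuclear or mitochondrial respiratory chain genes (x axis), in input RNA and footprints; points are libraries, bars the mean of 2, KO left of SCR. In input RNA the nuclear share is 0.958% to 1.03% in KO and 0.887% to 0.892% in SCR libraries, and the mitochondrial share is 0.695% to 0.917% in KO and 1.01% to 1.05% in SCR libraries.

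Ribosome footprints of the nuclear genes lay around 0. Of 84 nuclear members tested none rose or fell in edgeR, where 0.510% of all 16878 genes rose and 1.78% fell. At an unadjusted p below 0.05, 11 were higher and 14 lower. The share of all genes at that looser cutoff was not counted, so these numbers cannot be judged against it. The median was -0.02, against 0.01 over all genes. Both KO libraries were above both SCR libraries for 22 nuclear members and below them for 24, against 29.5% and 28.2% of all genes. With library totals alone the median was 0.09 and that of all genes 0.12, so relative to all genes it was -0.03 on either scale, and all-gene calls split into 439 that rose and 234 that fell, compared with 86 and 301 under TMM. DESeq2 called 11 nuclear members, of which 6 rose (Ndufv2, Sdhb, Cox4i1, Atp5c1, Atp5o and Atp5pb) and 5 fell (Ndufa9, Sdha, Uqcrc1, Uqcr11 and Cox8a), where DESeq2 called 2.39% of all genes as risen and 5.69% as fallen. The share of members that fell there is near that of all genes.

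The members with the smallest p in each complex lay on both sides of 0. Ndufv2, a core subunit of complex I, had 80.9 and 87.4 footprint CPM in KO libraries, against 70.4 and 67.9 footprint CPM in SCR libraries (log2 fold change 0.28, SE 0.07, edgeR adjusted p = 0.0935). Sdhb had 461 and 477 footprint CPM in KO libraries, against 398 and 403 footprint CPM in SCR libraries (log2 fold change 0.23, SE 0.06, edgeR adjusted p = 0.114). These were higher in both KO libraries, while Sdha had 495 and 472 footprint CPM in KO libraries, against 565 and 580.2 footprint CPM in SCR libraries (log2 fold change -0.24, SE 0.07, edgeR adjusted p = 0.115), so members of complex II lay apart from each other. Uqcrc1 had 260.0 and 255 footprint CPM in KO libraries, against 314 and 299 footprint CPM in SCR libraries (log2 fold change -0.25, SE 0.06, edgeR adjusted p = 0.0946), the reverse order of its RNA. Cox8a, a small membrane subunit of complex IV, had 98.5 and 120.4 footprint CPM in KO libraries, against 171 and 144 footprint CPM in SCR libraries (log2 fold change -0.53, SE 0.13, edgeR adjusted p = 0.108), with groups that did not overlap although its RNA was level. Cox4i1, first in RNA, had 514 and 565 footprint CPM in KO libraries, against 446 and 452 footprint CPM in SCR libraries (log2 fold change 0.27, SE 0.07, edgeR adjusted p = 0.125), and both KO libraries were above both SCR libraries.

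In complex V the peripheral stalk, which holds the F1 head still, was picked out after its values were seen. Its 4 genes with counts had footprint values of 0.24 (Atp5pb), 0.22 (Atp5o), 0.20 (Atp5h) and 0.12 (Atp5j). Atp5o had 341 and 349.8 footprint CPM in KO libraries, against 291 and 302 footprint CPM in SCR libraries (log2 fold change 0.22, SE 0.06, edgeR adjusted p = 0.115). The 5 other membrane subunits Atp5j2, Atp5k, Atp5l, Atp5md and Atp5mpl had a median of -0.07, and the 3 c-ring genes -0.03. None of these passed the threshold in edgeR, and the difference between the stalk and other subunits was not tested.

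Mitochondrial footprints varied between libraries of the same genotype. None of the 13 genes had an unadjusted p below 0.05, and the median was 0.02. mt-Nd5 had 2174 and 2715 footprint CPM in KO libraries, against 2057 and 1897 footprint CPM in SCR libraries (log2 fold change 0.31, SE 0.14, edgeR adjusted p = 0.247), the highest value. It and mt-Nd1, with 0.22, were the members in which both KO libraries were above both SCR libraries. That is 2 of 13, against 29.5% of all genes, and in none were both below, against 28.2%. mt-Co3 had 2515 and 3493 footprint CPM in KO libraries, against 2861 and 2720.2 footprint CPM in SCR libraries (log2 fold change 0.11, SE 0.18, edgeR adjusted p = 0.757), and here the SCR libraries fell between the KO libraries. mt-Nd4 gave 0.23, mt-Co1 0.12, mt-Cytb 0.02, mt-Atp8 0.02, mt-Atp6 -0.01, mt-Nd3 -0.03, mt-Nd2 -0.04, mt-Nd4l -0.10, mt-Nd6 -0.15 and mt-Co2 -0.19. In all 13 genes KO library 2 was above KO library 1. The median was -0.16 without KO library 2 and 0.15 without KO library 1.

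**Figure D3:**
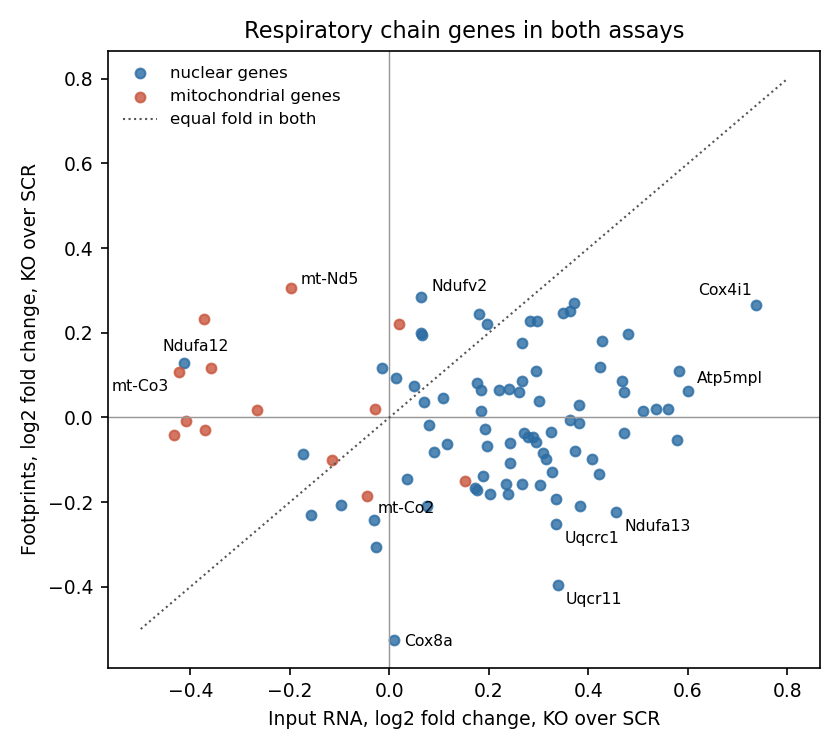
Log2 fold change of KO over SCR in input RNA (x axis) and in footprints (y axis) for respiratory chain genes tested in both, without the low-count gene Ndufa4l2; the dotted line marks equal change. Most nuclear genes lie right of 0 and below the line, and most mitochondrial genes lie left of 0 and above it.

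Footprints per coding length, which allow genes to be compared with each other, had a higher median in mitochondrial than in nuclear genes. The genomes still overlapped, as nuclear Ndufa4 and Atp5b lay above several mt-Nd genes. With coding lengths from the deposited table of open reading frames or, for mitochondrial genes, RefSeq, the median was 2148 and 2665 footprint CPM per coding kilobase for 13 mitochondrial genes in KO libraries, against 2696 and 2256 in SCR libraries. For 79 nuclear genes it was 234 and 239 in KO libraries, against 250.1 and 240.3 in SCR libraries. Among mitochondrial genes mt-Atp8 had 6564 and 8713 footprint CPM per coding kilobase in KO libraries, against 8478 and 6588 in SCR libraries. Its short reading frame overlaps that of mt-Atp6, so this level may include shared reads. mt-Co2 had 5687 and 7159 footprint CPM per coding kilobase in KO libraries, against 7705 and 6909 in SCR libraries, and the 7 mt-Nd genes had the lowest median of the mitochondrial sets, 1192 and 1489 in KO libraries against 1194 and 1039.9 in SCR libraries. Among nuclear genes Ndufa4 stood highest, with 2324 and 2322 footprint CPM per coding kilobase in KO libraries, against 2144 and 2310.1 in SCR libraries, and Atp5b next, with 1776 and 1812 footprint CPM per coding kilobase in KO libraries, against 1743 and 1688 in SCR libraries. Cox7a2l, a subunit relative that joins complexes III and IV, stood lowest, with 33.3 and 31.6 footprint CPM per coding kilobase in KO libraries, against 37.3 and 34.0 in SCR libraries. Nuclear medians in KO libraries were 131 and 157 for complex I, 232 and 238 for complex II, 181 and 218 for complex III, 532 and 650.2 for complex IV and 483 and 511 for complex V, and the SCR libraries put complexes IV and V above the others as well. Cytosolic and mitochondrial ribosomes can be recovered unequally, so the gap between genomes is a level in these libraries and not a rate.

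**Figure D4:**
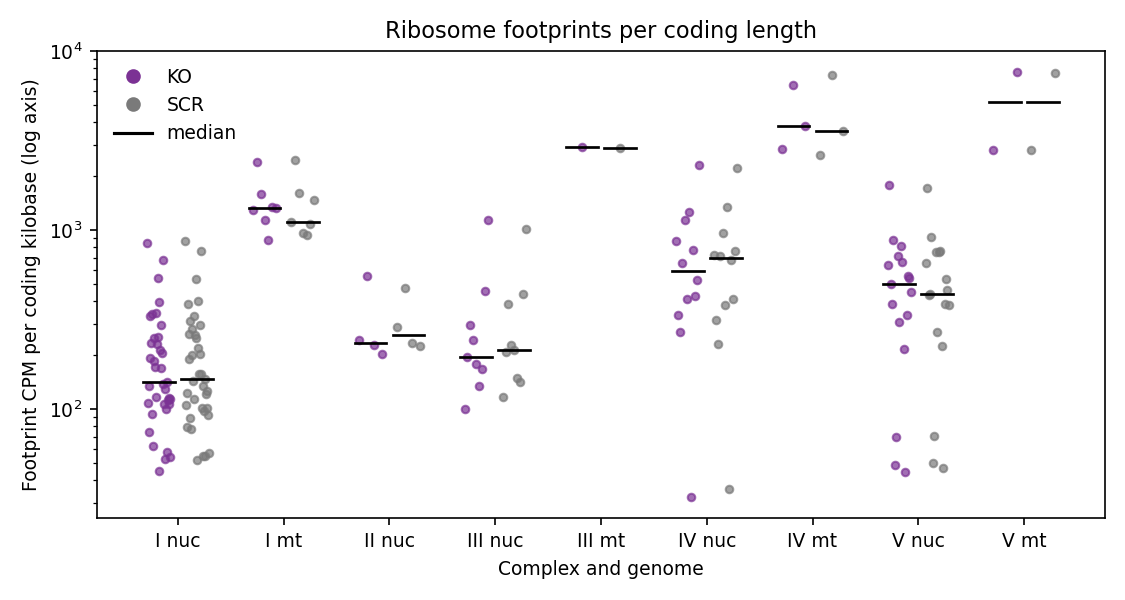
Ribosome footprint CPM per coding kilobase (y axis, log scale) by complex and genome (x axis); each point is the mean of 2 libraries for 1 gene, KO left of SCR, and bars are medians. Every mitochondrial set lies above every nuclear set of the same complex in its median, and KO and SCR medians are close.

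Translational efficiency (TE), the footprints per input RNA, was compared as the interaction of genotype and assay in 1 fit over all 8 libraries. It shares those libraries with the comparisons above and is no separate evidence. Of 85 nuclear members tested 5 fell and none rose, against 3.40% and 0.788% of all 23211 genes. The median was -0.34 over nuclear members and -0.05 over all genes, and 76 of 85 values were below 0. With library totals alone, which raise the all-gene TE median by 0.20, the nuclear median was -0.13; relative to all genes it was -0.27 there and -0.29 under TMM. All-gene calls then split into 1011 that rose and 305 that fell, compared with 183 and 790, and among nuclear members Ndufa13 and Uqcrc1 fell and Ndufv2 rose. DESeq2 called 31 nuclear members as fallen, against 6.07% of all genes. The count that fell was 3 without footprint KO library 1, 17 without footprint KO library 2, 6 without footprint SCR library 1, 3 without footprint SCR library 2 and 12 without input KO library 2, where 632, 1021, 690, 723 and 586 of all genes fell. Without input KO library 1, SCR library 1 or SCR library 2 no gene at all fell, so the absence of members there says nothing about them. The labels do not say that a number marks a shared culture, and same-numbered RNA and footprint libraries of a genotype did not deviate together across genes. With the replicate number as a block 1 member fell, as did 303 of all genes, and with a block for each numbered culture no member and no gene passed the threshold.

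Uqcrc1 had the smallest adjusted p among the members. Its TE fell with a log2 fold change of -0.63 (SE 0.10, edgeR adjusted p = 0.0243). Uqcr11 had 47.5 and 51.2 footprint CPM in KO libraries, against 71.0 and 59.1 footprint CPM in SCR libraries beside its raised RNA, and its TE fell by 0.77 on the log2 scale (SE 0.13, edgeR adjusted p = 0.0267). Their windows hold NRF1 letters after the start of Uqcrc1 and ETS letters before that of Uqcr11. The promoter of Ndufa13, which also fell in TE, held none of the letters searched, and a link of letters to TE was not tested. Ndufa13, an accessory subunit of complex I, had 13.9 and 12.6 RNA CPM in KO libraries, against 9.26 and 10.1 RNA CPM in SCR libraries, and 148 and 138 footprint CPM in KO libraries, against 159 and 175 footprint CPM in SCR libraries (TE log2 fold change -0.72, SE 0.12, edgeR adjusted p = 0.0275). Sdhd had 175 and 155 RNA CPM in KO libraries, against 142 and 138 RNA CPM in SCR libraries, and 96.2 and 96.6 footprint CPM in KO libraries, against 109 and 106 footprint CPM in SCR libraries (TE log2 fold change -0.43, SE 0.09, edgeR adjusted p = 0.0435). Atp5j2, a membrane subunit of the ATP synthase, had 44.3 and 41.3 RNA CPM in KO libraries, against 31.0 and 34.6 RNA CPM in SCR libraries, and 164 and 186 footprint CPM in KO libraries, against 202 and 203 footprint CPM in SCR libraries (TE log2 fold change -0.63, SE 0.12, edgeR adjusted p = 0.037). As a description of genes chosen for lower TE, in all 5 both KO libraries were above both SCR libraries in RNA and below them in footprints, and 4 of the 5, all but Sdhd, had risen in RNA. In complex IV none passed the threshold, and Cox8a had the smallest p (log2 fold change -0.57, SE 0.15, edgeR adjusted p = 0.0827).

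**Figure D5:**
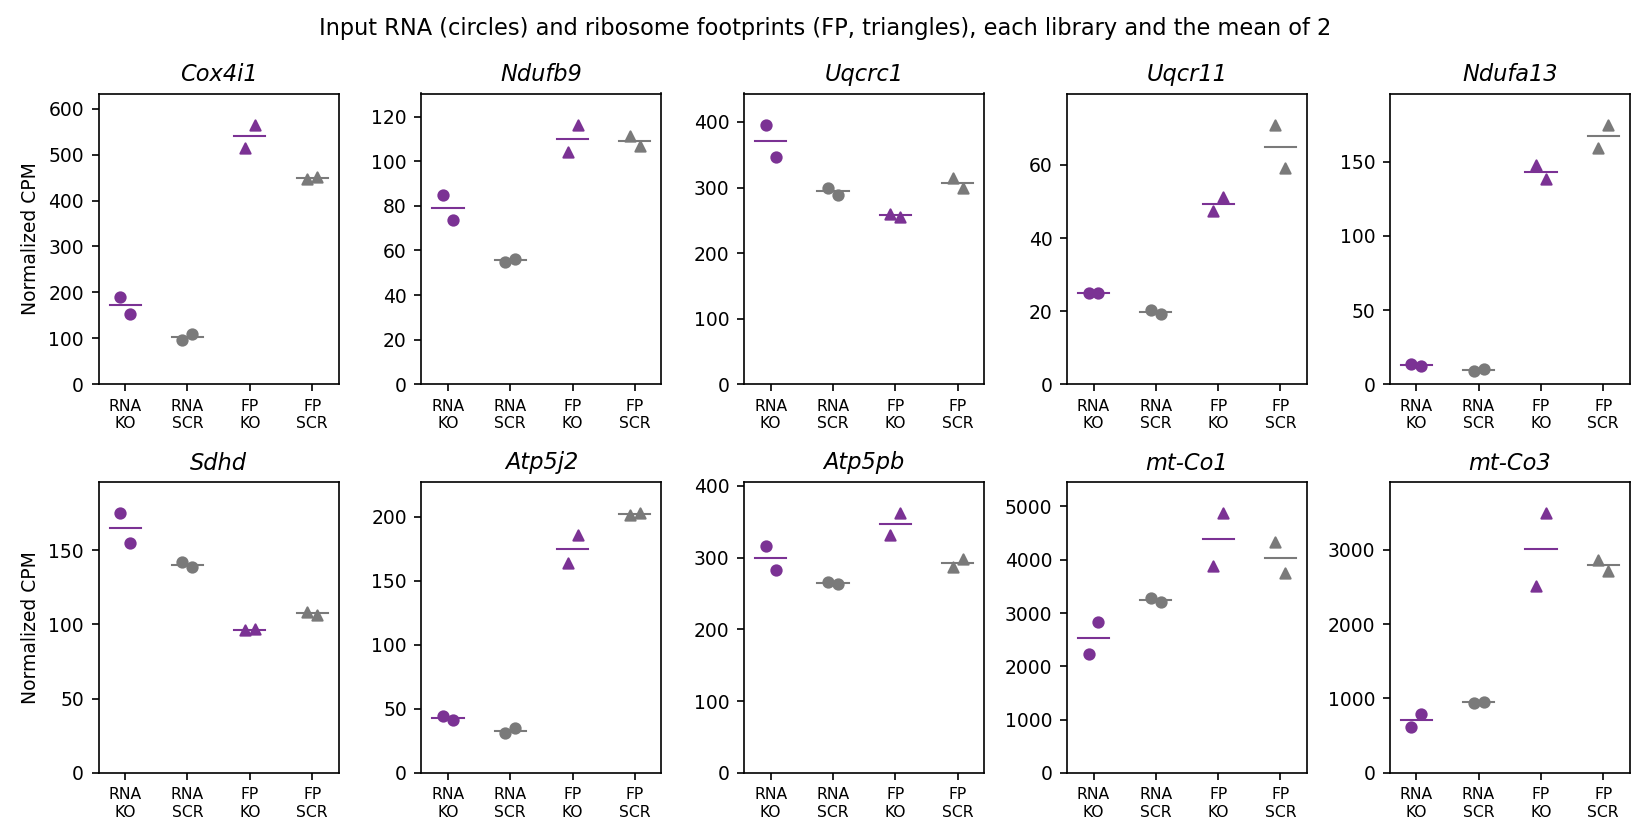
Normalized CPM (y axis, from 0) of 10 respiratory chain genes in input RNA (circles) and footprints (FP, triangles), KO left of SCR within each assay; points are libraries and lines the mean of 2. In Uqcrc1, Uqcr11, Ndufa13, Sdhd and Atp5j2 the KO libraries lie above SCR in RNA and below SCR in footprints, while in Cox4i1 and Atp5pb they lie above in both.

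The 35 members that rose in RNA were followed into the other assay as a description. Their RNA values ran from 0.18 to 0.74 with a median of 0.37. Their footprint values ran from -0.40 to 0.27 with a median of 0.01, with 18 above and 17 below 0. All 35 had a TE value below 0, with a median of -0.45; since TE is footprints over RNA, a choice by higher RNA itself favours a lower TE. Cox5b and Uqcrfs1 were among those above 0 in both, with RNA values of 0.30 and 0.36 and footprint values of 0.23 and 0.25. The 6 genes that share AAGATGGCG after the start had RNA values above 0 in 6 of 6, with a median of 0.30, and TE values below 0 in 6 of 6, with a median of -0.39; 2 rose in RNA (Ndufs7 and Atp5j2) and 1 fell in TE (Atp5j2). The medians of all nuclear members, 0.27 and -0.34, were close to these.

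By complex, the nuclear TE median was -0.39 in complex I, -0.30 in complex II, -0.32 in complex III, -0.22 in complex IV and -0.30 in complex V. The peripheral stalk had a median of 0.00, from -0.32 (Atp5h) to 0.09 (Atp5j), while the 5 other membrane subunits of complex V had -0.56. Nuclear members above 0 were few. Ndufa12 gave 0.50 (edgeR adjusted p = 0.241) and Ndufv2 0.18 (edgeR adjusted p = 0.307).

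For mitochondrial genes the TE median was 0.30, with 10 of 13 values above 0. None passed the threshold in edgeR, and DESeq2 called 1, mt-Nd5, as risen, against 1.96% of all genes. mt-Nd4 gave 0.57 (SE 0.24, edgeR adjusted p = 0.248), mt-Co3 0.49, mt-Nd5 0.47, mt-Co1 0.44, mt-Atp6 0.36, mt-Nd2 0.35 and mt-Nd3 0.30. The members below 0 were mt-Nd6 (-0.34), mt-Co2 (-0.18) and mt-Nd4l (-0.02). The median was 0.03 without footprint KO library 2 and 0.54 without input KO library 2, so its size rested on those libraries.

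The authors' deposited table of translational efficiency called more members. At its adjusted p below 0.05, 21 nuclear members of the 84 with an adjusted p fell and no mitochondrial gene was called, where the authors' deposited table has 8.69% of all 16872 genes as fallen and 2.17% as risen. Of the 21, 11 belong to complex I, 2 to complex II, 3 to complex III and 5 to complex V. In the authors' deposited table the TE of Uqcrc1 was 0.375 in KO cells against 0.585 in SCR cells (adjusted p = 9.01e-05), and that of Ndufa13 was 5.81 in KO cells against 9.68 in SCR cells (adjusted p = 0.00011). The medians in that table were 0.878 in KO and 0.968 in SCR cells over the 80 nuclear members that were tested in both assays and are not copies, and 1.99 in KO and 1.46 in SCR cells over 13 mitochondrial genes. All 5 members called by edgeR were also called there.

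Genes that build, feed and import the respiratory chain were read the same way, from lists chosen with results of these data known. Of 29 import and outer membrane genes 19 (65.5%) rose in RNA and none fell, against 9.56% and 7.21% of all genes, with a median of 0.36. In TE 6 of the 29 (20.7%) fell, against 3.40% of all genes. Tomm20, a receptor for imported precursors, had 268 and 242 CPM in KO libraries, against 181 and 179 CPM in SCR libraries (log2 fold change 0.50, SE 0.06, edgeR adjusted p = 0.00437). Tomm22, its partner receptor, and Timm44, which ties the import motor to the inner membrane channel, rose by 0.55 and 0.50 on the log2 scale (edgeR adjusted p = 0.00577 and 0.00576). In TE Tomm20 fell by 0.72 on the log2 scale (edgeR adjusted p = 0.0205). Vdac3, an outer membrane channel, was the only listed gene of these sets that rose in footprints, where 0.510% of all genes did, with 137 and 144 footprint CPM in KO libraries, against 98.9 and 104 footprint CPM in SCR libraries (log2 fold change 0.47, SE 0.06, edgeR adjusted p = 0.0435).

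Other lists lay nearer to the all-gene shares of 9.56% that rose in RNA and 3.40% that fell in TE. Of 50 assembly factors tested in RNA 5 (10%) rose and none fell, and in TE 2 of 51 (3.92%) fell, Cox11 and Uqcc1; both shares are near those of all genes. The assembly factors with the highest values among those that rose were Cmc2 (0.73) and Ndufaf6 (0.68). Of 15 genes of coenzyme Q and cytochrome c, Coq2 (0.44) and Coq9 (0.26) rose (13.3%). Of 34 genes of mitochondrial gene expression 6 (17.6%) rose, among them Lrpprc, which stabilises mitochondrial messenger RNAs. Lrpprc had 191 and 178 CPM in KO libraries, against 125 and 134 CPM in SCR libraries (log2 fold change 0.51, SE 0.06, edgeR adjusted p = 0.0043). Tufm, the mitochondrial elongation factor, rose by 0.35 in RNA and fell by 0.57 in TE on the log2 scale (edgeR adjusted p = 0.00816 and 0.0205), and Oxa1l and Letm1 also fell in TE, so 3 of 34 (8.82%) did. Tfam, which packages mitochondrial DNA and helps start its transcription, had an RNA value of 0.06 (edgeR adjusted p = 0.637). Of 19 tricarboxylic acid cycle genes 3 (15.8%) rose, Mdh2, Pdhx and Idh3a, and 1 (5.26%) fell, Suclg2, against 7.21% of all genes that fell in RNA. With so few genes in each list, 1 gene moves these shares by several percentage points.

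Of 12 regulators tested in RNA, Pprc1 and Myc rose (16.7%) and Hif1a fell (8.33%), against 9.56% and 7.21% of all genes. Hif1a, which restrains respiration in low oxygen, had 171 and 176 CPM in KO libraries, against 232 and 238 CPM in SCR libraries (log2 fold change -0.44, SE 0.05, edgeR adjusted p = 0.00343). Pprc1, a coactivator that works with NRF1, had 195 and 179 CPM in KO libraries, against 147 and 152 CPM in SCR libraries (log2 fold change 0.32, SE 0.06, edgeR adjusted p = 0.0135). Nrf1, Gabpa and Yy1, whose letters were searched in the promoters, had RNA values of 0.10, -0.05 and -0.05, none past the threshold. In TE the coactivator genes parted, as Ppargc1a rose (log2 fold change 0.57, SE 0.10, edgeR adjusted p = 0.0333) and Ppargc1b fell (log2 fold change -0.59, SE 0.12, edgeR adjusted p = 0.0434); they are 1 of 13 in either direction (7.69%), against 0.788% of all genes that rose and 3.40% that fell.

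Unannotated open reading frames (ORFs) were listed by the authors in 37 members, 47 in all, and 9 members had 1 in the deposited lists of ORFs larger in a genotype, by a rule not given in the sources used here. Listed as larger in KO were an ORF upstream of Atp5j, with an ATG start and 11 codons, and an ORF that begins with CTG and overlaps the start of Ndufs1, with 47 codons. Listed as larger in SCR were upstream ORFs of Atp5c1, Ndufa8, Ndufc2, Ndufb11 and Ndufs8 and downstream ORFs of Uqcrh and Uqcr11. The Atp5c1 ORF, 19 codons from an ATG, had 505 in-frame P-sites, the ribosome positions assigned to codons, and 103 RPKM in the authors' deposited table, and the others lay between 3.14 and 20.8 RPKM. These values appear to cover all libraries together, so they carry no comparison. In footprints counted per gene Atp5c1 gave 0.20 and Atp5j 0.12, with both KO libraries above both SCR libraries, as in 29.5% of all genes. Ndufa8, Ndufb11 and Uqcr11 had both KO libraries below both SCR libraries, as in 28.2% of all genes. The groups overlapped in Ndufs1, Ndufc2, Ndufs8 and Uqcrh.

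Tissue-restricted isoforms were at or near 0. Cox4i2, Cox6a2, Cox7b2 and Cox8c had no counts in any of the 8 libraries. Cox6b2 had no RNA counts in KO libraries and 4 and 8 in SCR libraries, Cox7a1 had 13 and 13 in KO and 12 and 14 in SCR libraries, and Cox8b had 10 and 0 in KO and 15 and 11 in SCR libraries, all with no footprints. Ndufa4l2, a relative of Ndufa4 known as a target of hypoxia, had 34 and 31 RNA counts in KO and 38 and 47 in SCR libraries. Its footprints were 0 and 67 counts in KO and 91 and 97 in SCR libraries, so KO library 1 alone lacked them.

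The near-identical copies Cox6c2 and Ndufa11b were counted in footprints with almost no RNA. Cox6c2 had 1048 and 1655 footprint counts in KO and 1689 and 1937 in SCR libraries, but 9 and 8 RNA counts in KO and 2 and 4 in SCR libraries. Ndufa11b had 126 and 162 footprint counts in KO and 296 and 276 in SCR libraries, and 2 to 5 RNA counts in every library. Short footprints of the parent genes Cox6c and Ndufa11 can match such copies, so values of Cox6c2, Ndufa11b, Ndufs6b, Ndufb4c and Ndufb11b, and of their parents in footprints, are uncertain. Without the 5 copies the nuclear medians were 0.27 in RNA, -0.02 in footprints and -0.34 in TE. Atp5o has 2 gene IDs in the matrices, 1 of them with no counts. In all, 9 members were not tested in RNA, 9 in footprints and 8 in TE, and the rest passed the filter on low counts.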

How the data were processed

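Input RNA and ribosome footprints of cultured Mettl5 KO and SCR B16-F10 cells were analysed, 2 libraries of each. The authors deposited expected counts per gene, in whole numbers and without normalization. The matrices have the form of StringTie gene counts, which are estimated from coverage and a set read length. No source used here states the length set for the short footprints, so footprint counts, and p-values that rest on them, are uncertain in scale. Per the submitters' processing notes, STAR 2.7.10a and StringTie 2.1.7 were used with GRCm39, in roles not stated. Count columns headed POOL were assigned to KO because every other column is headed SCR. Per the labels, cells for footprints received cycloheximide (100 µg/ml, 8 min) and lysates were digested for 40 min at 22 C.

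For translational efficiency the authors deposited a ratio for each genotype and, for KO against SCR, a log2 fold change and raw and adjusted p-values. Per the file headers, listed unannotated ORFs carry a count of P-sites, an RPKM and an adjusted p-value. The tools behind these tables are not given in the sources used here.

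Counts were fitted in R 4.3.3 with edgeR 4.0.16 (TMM, filterByExpr, quasi-likelihood F test) over all genes, each assay apart and efficiency as an interaction, with a Benjamini-Hochberg threshold of 0.05. Fits were tested on simulated data, but only with changes larger than those of the members called in the main fits. That test therefore does not cover changes of this size. SE is the fold change over the root of F. DESeq2 1.42.0 and limma 3.58.1 (voom) were alternatives, with other scalings, no filter, mitochondrial genes left out, replicate blocks and each library left out. Tables and figures used Python 3.11.15 and matplotlib 3.10.9. All mitochondrial members were named, and in each complex and comparison up to 4 members past the threshold by smallest p, otherwise the smallest p. Tissue isoforms, members with a listed ORF and up to 3 genes of each other list were named too. Copies, the peripheral stalk, motif genes and further single genes were named after their values were seen. Members and lists were chosen with earlier results of these data known. The number of libraries limits precision. Single-cell and T-cell receptor files were not used.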

Additional observations from a re-analysis of the deposited data

How the results depend on the processing

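No fold change of a respiratory chain gene called in the main tests changed sign under any alternative that was run, but the counts of calls did change. In input RNA the 36 members past the threshold became 4 with no filter on low counts, all of them nuclear genes that rose (Cox4i1, Ndufb3, Ndufb9 and Ndufs8); 34 or more stayed called with DESeq2, with its size factors, with limma voom and with the replicate block, and 26 on library totals alone. Mitochondrial genes that fell numbered 0 with DESeq2 and with no filter, 2 with DESeq2's size factors and with limma voom, 3 on library totals and 8 with the replicate block; 1 nuclear gene (Ndufa12) fell with DESeq2 and with the replicate block. In footprints the count of 0 became 11 with DESeq2 (6 rose, 5 fell) and 1 on library totals (Ndufv2, risen). Calls over all genes moved too. In input RNA 1915 rose and 1443 fell in the main fit, and 649 and 544 with no filter. There DESeq2 gave 2122 and 1467, its size factors 1896 and 1469, and limma voom 1898 and 1426. Library totals gave 1449 and 2240, and the replicate block 2114 and 1545. In footprints 86 rose and 301 fell in the main fit, 403 and 960 with DESeq2 and 439 and 234 on library totals. With the replicate block no gene rose or fell in footprints, so the absence of members there says nothing about them.

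In translational efficiency the main fit called 5 members, all of which fell, as did 790 of all genes. DESeq2 called 32 (31 nuclear that fell, 1 mitochondrial that rose), where 1409 of all genes fell and 454 rose. The count was 21 in the authors' deposited table (1467 of all genes fell) and 10 with no filter (1016 fell). It was 8 with mitochondrial genes left out (846 fell) and 3 with limma voom (446 fell). On library totals 2 members fell and 1 rose, as did 305 and 1011 of all genes. With the replicate block 1 member and 303 of all genes fell. With a block for each numbered culture within a genotype no member and no gene passed the threshold. Leaving out each library in turn gave 4 to 64 members in input RNA (3 to 55 nuclear that rose, 0 to 1 nuclear that fell, 0 to 9 mitochondrial that fell), 0 to 1 in footprints (0 to 1 nuclear that fell, which was Ndufa4l2) and 0 to 18 in translational efficiency (0 to 17 nuclear and 0 to 1 mitochondrial that fell); the lone library left in a group is then assumed to vary like the others. The cause of these changes was not tested. The labels do not pair the replicate numbers, and across genes the deviations of same-numbered KO and SCR libraries correlated weakly (0.0592 for input RNA, 0.0666 for footprints). Across input RNA and footprint libraries of the same number the correlation was -0.0274 in KO and -0.0144 in SCR cells. Footprint libraries held 14555963 and 21366608 counts in KO cells and more in both SCR libraries, and the part of depth in the calls was not tested.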
